A study of Mus musculus with 5 samples.

Results

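The VEGF, angiopoietin and apelin system was followed here through 10 genes of 31053 listed in the deposited matrices. The genes were chosen by name, with earlier results of these data known. They comprise the ligands Vegfa, Angpt2 and Apln, the receptors Kdr, Flt1, Nrp1, Tek, Tie1 and Aplnr, and the secreted proteoglycan Esm1. In all, 5 single-cell libraries of adult C57BL/6 mouse lung, depleted of CD45+ and Ter119+ cells by sorting, were compared. Day 7 libraries came from Itgb1 fl/fl lungs given LPS, Itgb1 iKO lungs given PBS and Itgb1 iKO lungs given LPS, and day 21 libraries from Itgb1 fl/fl and Itgb1 iKO lungs given LPS. Day 21 suspensions were additionally enriched for CD326+ (EPCAM) epithelial cells.

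In Itgb1 iKO mice, the reverse tetracycline transactivator was driven by the surfactant protein C promoter, which is active in alveolar type 2 (AT2) epithelial cells. Cre then removed the floxed β1 integrin gene under doxycycline. Itgb1 fl/fl littermates lacked the transactivator and Cre and also drank doxycycline. LPS or PBS was instilled once into the trachea. Mice of a group were pooled into 1 library, and 3 hashtags (antibody-borne barcodes, taken as 1 mouse each) were in use in each library. A library effect and a group effect therefore cannot be told apart, and Itgb1 fl/fl lungs without LPS were not analysed here.

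After filtering, 2224 to 8671 cells per library remained, with 8360954 to 29128331 UMIs (unique molecular identifiers, counted transcripts) per library and median depths of 2219 to 5330 UMIs per cell. Pairs of libraries shared 15 to 102 cell barcodes. Endothelial cells held at least 2 UMIs of Cdh5 and Pecam1 together and none of Epcam or Col1a2. They were split into Car4+ cells (at least 1 Car4 UMI, 577 to 5016 cells per library) and Car4- cells (302 to 2960). AT2 cells numbered 26 to 1240 and Col1a2+ mesenchymal cells 103 to 553. Levels are in CPM, the UMIs of a gene per 1000000 UMIs of the cells summed, per library or per mouse.

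The targeted gene was examined first. In AT2 cells with a single hashtag, Itgb1 stood at 258 and 235 CPM in the 2 day 7 fl/fl mice with at least 20 AT2 cells and at 214, 150 and 193 CPM in the day 7 iKO mice given LPS. At day 21 it stood at 356, 319 and 372 CPM in fl/fl mice and at 141, 178 and 146 CPM in iKO mice. The iKO mice lay below the fl/fl mice at both days. Whether these 5′ tags fall within the deleted part was not determined, and Car4+ endothelial cells of the same 4 libraries held Itgb1 at 719 to 1178 CPM. Sftpc is an AT2 transcript that endothelial cells should lack. Over the mice of all 5 libraries, it ranged in Car4+ endothelial cells from 202 to 3390 CPM at day 7 and from 1991 to 14823 CPM at day 21. In Car4- endothelial cells it ranged from 287 to 5040 CPM at day 7 and from 2613 to 19444 CPM at day 21. Sftpc was thus counted in endothelial droplets, with the highest values at day 21, and its part in the results was not tested.

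Vegfa is secreted and acts on endothelial cells through KDR (VEGFR2), the main signalling receptor. FLT1 (VEGFR1) binds the same ligand with high affinity and weak signalling, and NRP1 is a co-receptor. TIE2, the product of Tek, is kept active by angiopoietin 1, while angiopoietin 2, from Angpt2, is a context-dependent antagonist. TIE1 is a partner receptor without a high-affinity ligand of its own. Apelin is a secreted peptide that signals through the G-protein-coupled receptor APLNR, and Esm1 (endocan) marks VEGF-responsive endothelial tip cells. In the mouse lung, alveolar capillaries hold 2 cell types: the aerocyte, which carries Car4 and Ednrb, and the general capillary cell, which carries Gpihbp1 and Plvap.

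On GRCm38, Apln lies on the minus strand of chromosome X (48025146 to 48034853) and its receptor gene Aplnr on the plus strand of chromosome 2 (85136225 to 85139923). Kdr and Flt1 both lie on the minus strand of chromosome 5 (75932827 to 75978458 and 147561604 to 147726011), and Tek and Tie1 both on chromosome 4 (94739289 to 94874976, plus, and 118471191 to 118490061, minus). Vegfa lies at chromosome 17 (46016993 to 46032369, minus), Nrp1 at chromosome 8 (128358604 to 128503363, plus), Angpt2 at chromosome 8 (18690263 to 18741562, minus) and Esm1 at chromosome 13 (113209659 to 113218098, plus). All are protein-coding. Angpt2 overlaps Mcph1 on the opposite strand, and Esm1 overlaps Gzmk on the opposite strand.

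Promoter sequences of 200 bases (RefSeq, GRCm38.p6, 170 bases before to 30 from the start) are shown for 4 members that separated the endothelial classes: Apln and Kdr, which were higher in Car4+ cells, and Tek and Esm1, which were lower. Capitals mark GGGCGG on either strand. The coordinates are chrX:48034824-48035023 (minus strand) for Apln, chr5:75978426-75978625 (minus) for Kdr, chr4:94739119-94739318 (plus) for Tek and chr13:113209489-113209688 (plus) for Esm1.
Apln: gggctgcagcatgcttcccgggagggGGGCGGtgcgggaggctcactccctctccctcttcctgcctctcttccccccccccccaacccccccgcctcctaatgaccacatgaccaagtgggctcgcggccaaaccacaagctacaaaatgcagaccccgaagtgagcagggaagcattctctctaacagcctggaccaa
Kdr: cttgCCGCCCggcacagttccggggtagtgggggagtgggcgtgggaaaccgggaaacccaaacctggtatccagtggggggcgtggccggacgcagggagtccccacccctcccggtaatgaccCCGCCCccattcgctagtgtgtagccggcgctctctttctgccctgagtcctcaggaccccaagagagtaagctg
Tek: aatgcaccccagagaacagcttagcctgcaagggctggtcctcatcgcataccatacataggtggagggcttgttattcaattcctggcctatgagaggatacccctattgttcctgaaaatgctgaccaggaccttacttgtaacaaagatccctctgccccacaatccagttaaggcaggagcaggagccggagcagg
Esm1: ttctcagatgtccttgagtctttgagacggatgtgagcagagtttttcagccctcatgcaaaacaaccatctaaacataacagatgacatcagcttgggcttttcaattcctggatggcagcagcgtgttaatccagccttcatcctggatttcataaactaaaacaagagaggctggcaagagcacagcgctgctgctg
In the 300-base windows from which these were taken, GGGCGG was present for Apln, Kdr, Nrp1, Flt1 and Vegfa and not for Tek, Tie1 or Esm1, against 35.7% of 32851 mouse promoters. TATAAA (13.6% of promoters) was present for Flt1 only, and ACGTG (19.6%) for 1 of 2 Vegfa starts. GTAAACA (3.65%), CCGGAAG (8.86%) and TGANTCA (7.81%) were in none of these members' windows, both strands being searched for each. The guanine and cytosine content was 64.0% for Apln, 60.7% for Kdr, 52.0% for Tek and 46.3% for Esm1, against a median of 52.7% over all promoters. These matches are a description of letters and not of factor binding. Angpt2 and Aplnr are named only.

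The first question was how the system is divided between the 2 endothelial classes. Car4+ cells held more Apln, Kdr and Nrp1, and Car4- cells held more Vegfa, Tek, Aplnr and Esm1. Of the 10 members, 3 were higher and 5 lower in Car4+ than in Car4- cells of the same mice at day 7, and 3 were higher and 5 lower at day 21 (edgeR quasi-likelihood test with the mouse as a block, adjusted p under 0.05 over all genes tested). At day 7, 35.5% of 11010 genes were called, 16.7% higher and 18.8% lower. At day 21, 20.8% of 6336 genes were called, 10.3% higher and 10.5% lower. The median log2 fold change over the members was -0.24 at day 7 and -0.59 at day 21, against -0.01 over all genes on both days. None of the members entered the gates.

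**Figure D1:**
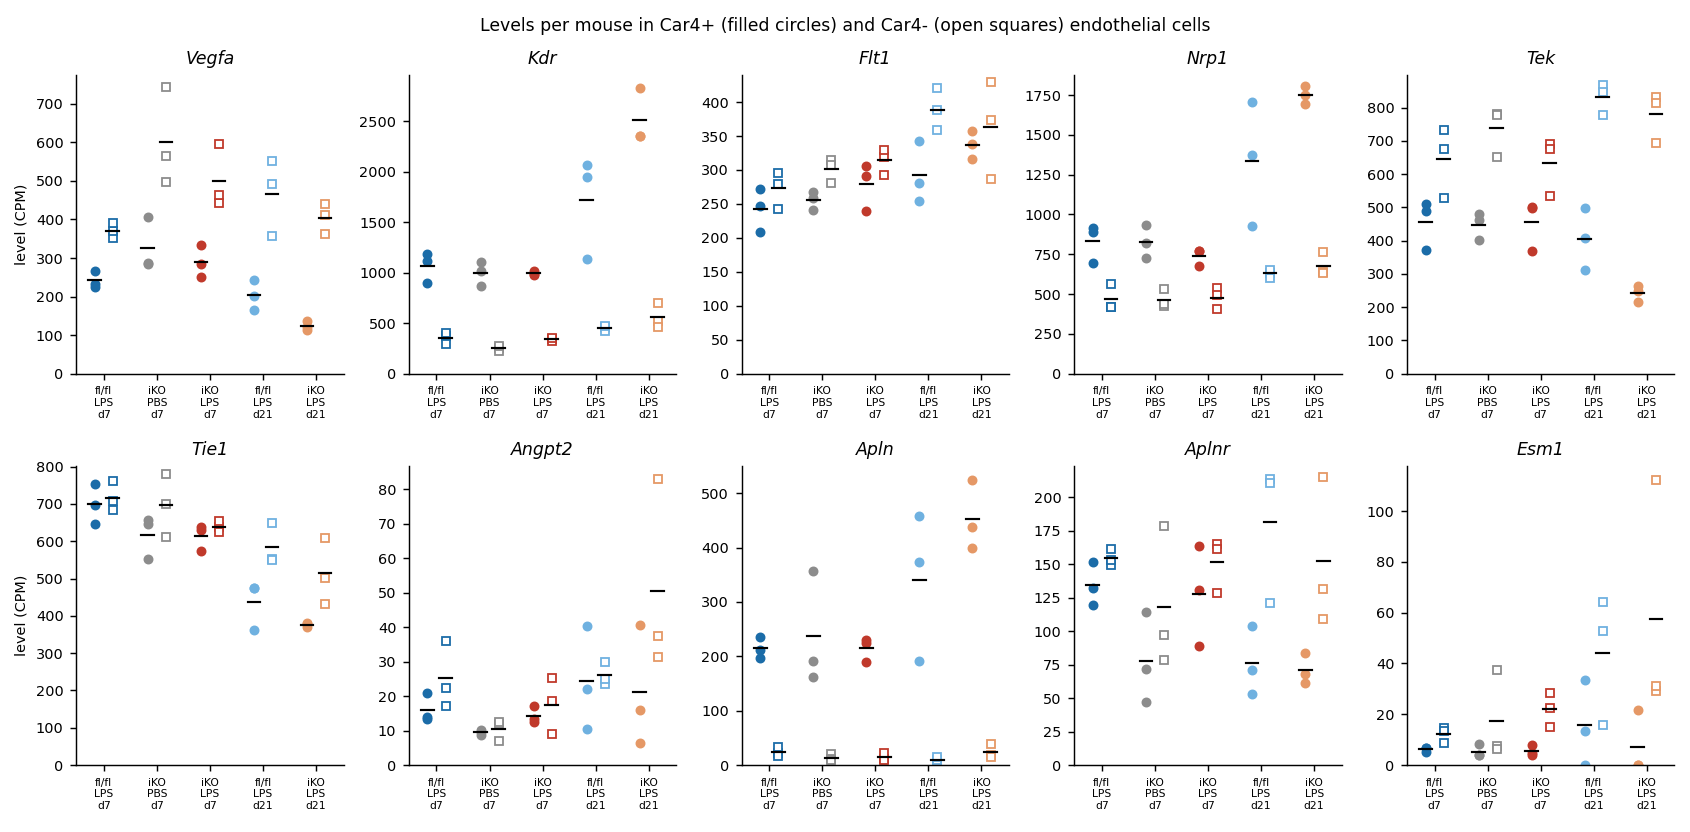
Level of each member per mouse in CPM (y axis, linear, from 0) in the 5 groups (x axis), with Car4+ endothelial cells as filled circles, Car4- cells as open squares and bars at the mean of 3 mice. Apln and Kdr lie higher in Car4+ cells of every mouse, and Vegfa and Tek lie lower.

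Among the ligands, Apln showed the widest gap. Over the 9 day 7 mice Apln ranged in Car4+ cells from 162 to 357 CPM (median 212), and in Car4- cells from 9.58 to 32.5 CPM (median 16.96). At day 21 the 6 mice ranged from 191 to 525 CPM (median 418) against 3.89 to 39.0 CPM (median 15.6). The classes did not overlap, and the log2 difference was 3.72 ± 0.11 (SE) at day 7 and 4.59 ± 0.21 at day 21 (adjusted p 2.9e-19 and 1.2e-20). Apln was higher in Car4+ cells of 9 of 9 mice and 6 of 6 mice.

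Vegfa went the other way. It ranged from 225 to 405 CPM (median 283) in Car4+ cells and from 351 to 744 CPM (median 462) in Car4- cells at day 7, and from 113 to 242 CPM (median 152) and 357 to 551 CPM (median 426) at day 21. Each mouse held less Vegfa in its Car4+ cells, although the day 7 ranges overlapped. The log2 difference was -0.74 ± 0.05 at day 7 (adjusted p 1.4e-12) and -1.35 ± 0.12 at day 21 (adjusted p 1.5e-11). Angpt2 was sparse, at 8.63 to 20.9 CPM in Car4+ and 7.03 to 35.8 CPM in Car4- cells at day 7. Its differences of -0.36 ± 0.15 and -0.80 ± 0.40 did not pass the test (adjusted p 0.063 and 0.17). The day 7 difference was called in several alternatives, among them stricter gates (-0.41, adjusted p 0.043) and predicted doublets removed (-0.42, adjusted p 0.042).

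Of the VEGF receptors, Kdr and the co-receptor gene Nrp1 were higher in Car4+ cells and Flt1 differed little. Kdr ranged at day 7 from 868 to 1187 CPM (median 1021) in Car4+ cells and from 223 to 400 CPM (median 325) in Car4- cells, and at day 21 from 1132 to 2831 CPM (median 2207) and 427 to 702 CPM (median 468). The 2 classes did not overlap at either day, and the log2 differences were 1.74 ± 0.05 and 2.06 ± 0.10 (adjusted p 9.9e-19 and 3.6e-19). Nrp1 ranged from 675 to 935 CPM against 404 to 565 CPM at day 7 and from 927 to 1809 CPM against 602 to 766 CPM at day 21, again without overlap. Its log2 differences were 0.80 ± 0.05 and 1.23 ± 0.10 (adjusted p 2.1e-12 and 8.4e-13). Flt1 ranged from 209 to 305 CPM in Car4+ and 243 to 330 CPM in Car4- cells at day 7, overlapping widely. Its difference of -0.16 ± 0.03 was called at day 7 (adjusted p 6.0e-04), and that of -0.24 ± 0.11 at day 21 was not (adjusted p 0.13). The day 7 call on Flt1 was lost when every cell was thinned to 1500 UMIs (-0.03, adjusted p 0.72).

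Tek, which encodes TIE2, was lower in Car4+ cells of every mouse. It ranged at day 7 from 369 to 511 CPM (median 480) in Car4+ cells and from 528 to 782 CPM (median 676) in Car4- cells, and at day 21 from 217 to 497 CPM (median 288) and 693 to 867 CPM (median 824). These ranges did not overlap, with log2 differences of -0.53 ± 0.04 and -1.30 ± 0.12 (adjusted p 4.7e-11 and 9.9e-12). Tie1 stayed closer, at 552 to 752 CPM against 610 to 781 CPM at day 7 and 363 to 474 CPM against 432 to 649 CPM at day 21. Only the day 21 difference of -0.38 ± 0.11 was called (adjusted p 6.7e-03), and it did not hold with thinned cells (adjusted p 0.11). Of 2 other angiopoietin and apelin genes tested at day 7, 0 were higher and 1 was lower in Car4+ cells. This was Ptprb, the phosphatase that opposes TIE2, with log2 differences of -0.74 ± 0.04 and -1.67 ± 0.10.

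The apelin receptor gene lay opposite its ligand. Aplnr ranged at day 7 from 47.3 to 164 CPM (median 119) in Car4+ and from 78.1 to 179 CPM (median 153) in Car4- cells, and at day 21 from 52.9 to 104 CPM (median 69.4) and 109 to 215 CPM (median 171). The ranges overlapped at day 7 and not at day 21. The log2 difference was -0.31 ± 0.06 at day 7 (adjusted p 4.6e-04, lower in 7 of 9 mice, and 0.32 without the mouse block) and -1.11 ± 0.19 at day 21 (adjusted p 1.2e-05, lower in 6 of 6 mice). Esm1 was detected at 3.87 to 8.16 CPM in Car4+ and 6.39 to 37.5 CPM in Car4- cells at day 7. Its log2 differences of -1.48 ± 0.18 and -1.81 ± 0.49 passed the test (adjusted p 2.3e-07 and 5.6e-03), and it was lower in 9 of 9 and 5 of 6 mice. The day 21 call was lost with the DESeq2 Wald test (-3.12, adjusted p 0.12).

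**Figure D2:**
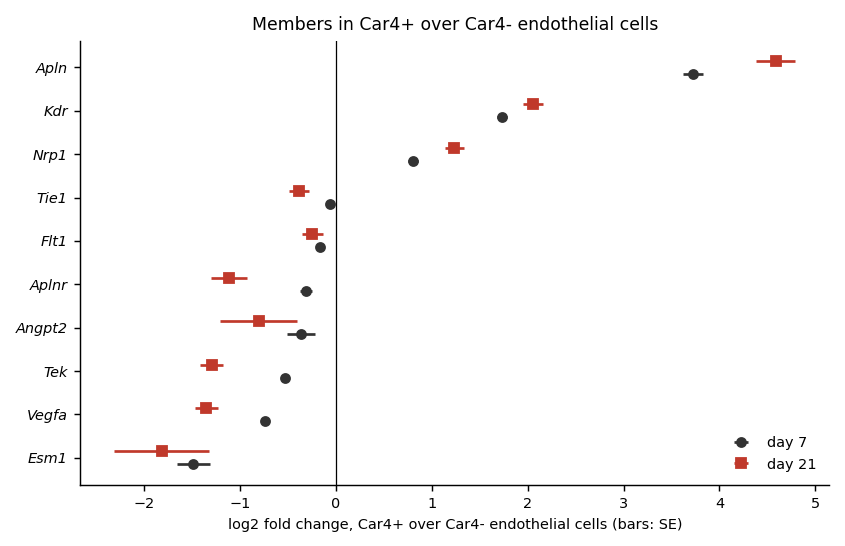
Log2 fold change of Car4+ over Car4- endothelial cells (x axis) for each member (y axis), with SE bars, for 9 mice at day 7 (circles) and 6 mice at day 21 (squares). Apln, Kdr and Nrp1 lie above 0 at both days, from 0.80 to 4.59.

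The Car4+ gate held a mixture, so the levels were also read by the number of Car4 UMIs in a cell. In the fl/fl day 7 library, Kdr stood at 362, 368 and 370 CPM in cells with 0, 1 and 2 Car4 UMIs, at 516 CPM with 3 to 4 and at 1878 CPM with 5 or more. Apln in the same bins stood at 22.7, 23.8, 33.1, 71.8 and 434 CPM, and Vegfa at 371, 380, 358, 297 and 119 CPM. In the other 2 day 7 libraries, Apln stood at 14.1 and 14.3 CPM without Car4, at 20.7 and 17.7 CPM with 1 and at 42.5 and 34.1 CPM with 2 Car4 UMIs, while Kdr stood at 253 to 384 CPM with 1 or 2 against 255 and 343 CPM without. At day 21, Kdr stood at 471 and 554 CPM without Car4 and at 614 and 810 CPM with 1 Car4 UMI in fl/fl and iKO. In each library Kdr and Apln were highest with 5 or more. Cells with 5 or more Car4 UMIs made up 17.3% to 42.2% of endothelial cells per library.

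In those cells, Kdr stood at 1814 to 1888 CPM in the day 7 libraries and at 2911 and 3492 CPM at day 21, and Nrp1 at 1163 to 1301 CPM and at 2068 and 2345 CPM. Vegfa was down to 111 to 137 CPM at day 7 and 23.8 CPM in both day 21 libraries, and Tek to 182 to 254 and 61.4 to 63.7 CPM. Aplnr stood at 24.0 to 75.2 CPM at day 7 and 8.56 to 13.8 CPM at day 21. The aerocyte gene Ednrb stood at 1080 to 1779 CPM and the general capillary gene Plvap still at 168 to 916 CPM in these cells. Doublets and free RNA were not separated from expression here.

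**Figure D3:**
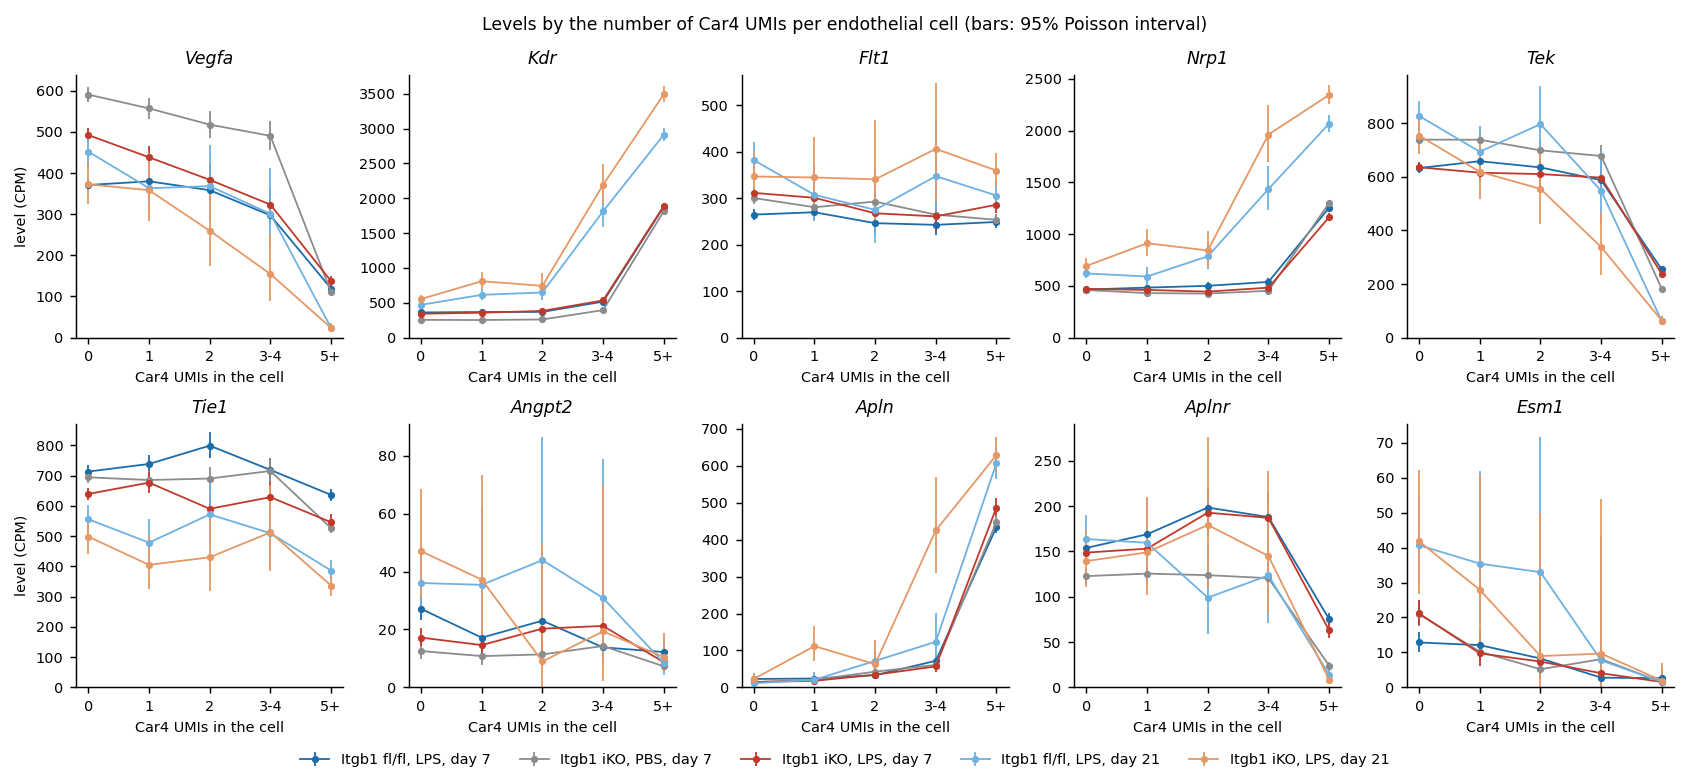
Level of each member in CPM (y axis) in endothelial cells with 0, 1, 2, 3 to 4, and 5 or more Car4 UMIs (x axis), 1 line per library, with exact 95% Poisson intervals that cover counting error only. Kdr, Nrp1 and Apln are highest and Vegfa, Tek and Aplnr lowest with 5 or more Car4 UMIs.

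Ligand and receptor transcripts of the apelin pair were seldom found in the same cell. Among Car4+ cells thinned to 1500 UMIs, Aplnr was detected in 4.90%, 3.41% and 2.49% of cells with Apln and in 19.2%, 11.9% and 19.6% of cells without it in the fl/fl LPS, iKO PBS and iKO LPS libraries at day 7. At day 21 the shares were 0.505% of 198 cells with Apln against 10.6% without in fl/fl, and 0.493% of 203 cells against 10.8% in iKO. Apln was in 27.3% to 50.8% of cells with Kdr and in 3.35% to 7.23% of cells without Kdr across libraries. These are shares of cells within a library, for which no test across mice was made.

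Over the 30 sums per mouse and endothelial class, the genes whose log2 levels followed Apln most closely were Fibin, Chst1 and Igfbp7 (Pearson r 0.98 each), and those closest to Kdr were Grb14 (0.96), Sept4 (0.96) and Kitl (0.95). Aplnr was followed by Antxr2 (0.86), Prex2 (0.83) and Cdk6 (0.82). The closest genes to Esm1 reached 0.81 to 0.83 and those to Angpt2 0.75 to 0.78. The sums share mice and libraries, so these values are a description. Fibin and Chst1 are on the list of aerocyte markers.

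Per-mouse levels rest on cells with a single hashtag, which are 50.3% to 78.7% of cells per library, and the cells without any hashtag differed from them. In Car4+ cells of the fl/fl day 7 library, the 246 cells without a hashtag held Kdr at 2676 CPM against 1069 CPM in cells with 1 hashtag, Apln at 532 against 215 CPM and Vegfa at 81.1 against 242 CPM. The same order held for these 3 genes in the other 4 libraries. Cells without a hashtag made up 5.96% to 9.57% of Car4+ cells at day 7 and 41.6% (fl/fl) and 28.8% (iKO) at day 21. Per-mouse day 21 levels of the Car4+ class therefore leave out many of the cells with the most Kdr and Apln, and day 7 and day 21 levels were not tested against each other.

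Within Car4- cells, vessel type marked further differences, given as library levels with exact 95% Poisson intervals. In the fl/fl day 7 library, Esm1 stood at 99.2 CPM (65.9 to 143) in cells with the arterial connexin gene Gja5 and at 8.80 CPM (6.6 to 11.5) in cells without. In iKO LPS day 7 Esm1 stood at 113 (87.6 to 144) against 12.04 CPM (9.4 to 15.2), and in iKO PBS at 149 (103 to 209) against 16.2 CPM (13.2 to 19.7). Vegfa was also higher with Gja5, at 680 against 356, 714 against 470 and 892 against 580 CPM in those libraries. Aplnr was lower, at 35.4 against 159, 21.9 against 161 and 22.0 against 126 CPM.

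Cells with Prox1, the lymphatic transcription factor, held Angpt2 at 147 CPM (109 to 194) against 20.4 CPM (16.97 to 24.4) in fl/fl day 7 and at 75.1 (42.9 to 122) against 15.3 CPM (12.4 to 18.6) in iKO LPS day 7. Kdr there stood at 582 and 516 CPM, Flt1 at 27.0 and 37.6 CPM and Nrp1 at 63.0 and 46.9 CPM. Flt1 and Nrp1 were thus far below the 278 to 487 CPM of Car4- cells without Prox1 in the same 2 libraries. Angpt2 was also found in mesenchymal cells, at 167 CPM (134 to 206) in fl/fl day 21 cells without Pdgfra and at 21.8 CPM (12.9 to 34.4) in those with it. No hashtag was found in 79.5% of the mesenchymal cells of that library. Over mesenchymal cells with a single hashtag, Angpt2 averaged 19.6 CPM in fl/fl and 22.8 CPM in iKO LPS mice at day 7. At day 21 it was 41.8 CPM over 2 fl/fl mice and 61.5 CPM in 1 iKO mouse.

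Expression of the members was next compared between conditions. In the Car4+ class, none of the 10 members was called for iKO over fl/fl after LPS at day 7 (1.75% of all genes called), LPS over PBS in iKO at day 7 (18.7%) or iKO over fl/fl after LPS at day 21 (0.357%). In the Car4- class none was called in the same comparisons either, where 1.17%, 15.3% and 0.224% of genes were. At an unadjusted p under 0.05, 0, 1 and 4 members passed in Car4+ cells and 2, 3 and 0 in Car4- cells, in that order of comparisons. Over all genes, 1323, 3352 and 1076 of 10659 passed that threshold in Car4+ cells. In Car4- cells 1062, 2921 and 811 of 10710 genes did. With the alternative DESeq2 Wald test the counts were 0, 0 and 3 in Car4+ and 0, 1 and 0 in Car4- cells. Over all genes, DESeq2 called 151 in the Car4+ day 21 comparison and 1430 in the Car4- comparison of LPS over PBS. The 2 iKO over fl/fl comparisons share no mice, and both day 7 comparisons share the iKO LPS mice.

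**Figure D4:**
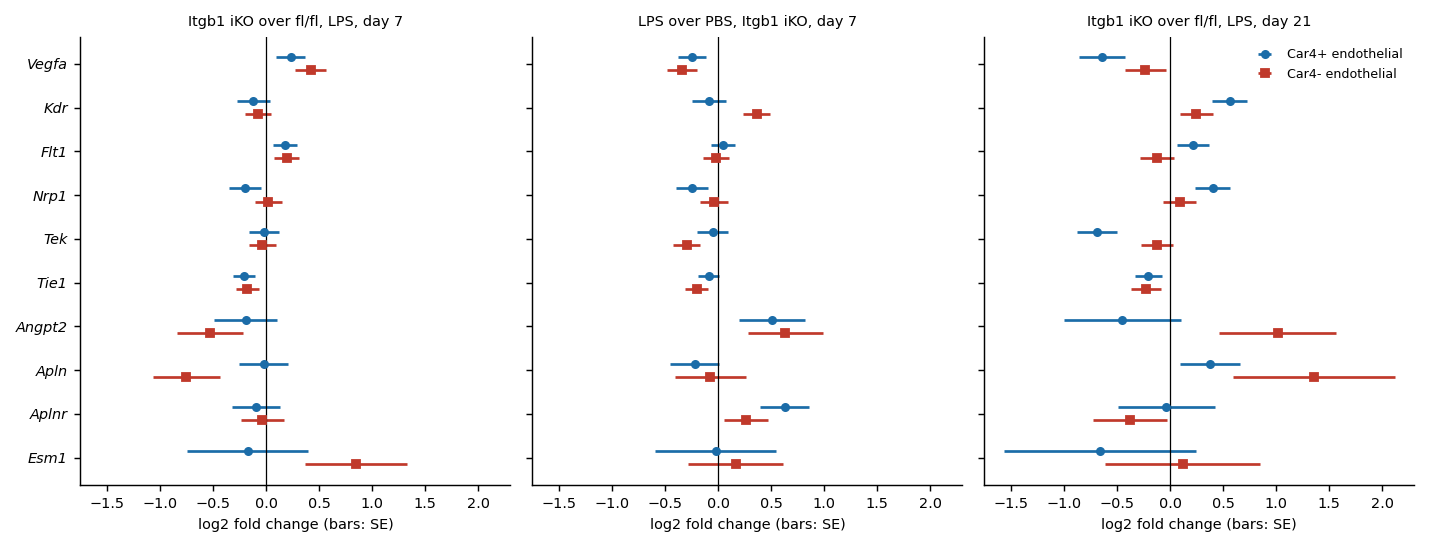
Log2 fold change (x axis) of each member (y axis) in Car4+ (circles) and Car4- (squares) endothelial cells in the 3 comparisons, with SE bars and 3 mice per group. The fold changes of Vegfa, Kdr, Flt1, Nrp1, Tek and Tie1 lie within -0.69 and 0.56, and none passed the adjusted test.

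The values nearest to the threshold after LPS were those of Aplnr and Kdr. In Car4+ cells, Aplnr stood at 115, 47.3 and 72.0 CPM in iKO PBS mice and at 130, 164 and 89.0 CPM in iKO LPS mice, overlapping through PBS mouse 1 and LPS mouse 3. The log2 difference was 0.63 ± 0.23 (adjusted p 0.063). Without PBS mouse 1 it was 1.02 (adjusted p 0.0011), and without LPS mouse 3 it was 0.83 (adjusted p 0.018). In Car4- cells, Kdr stood at 256, 223 and 273 CPM with PBS and at 343, 325 and 355 CPM with LPS, without overlap, a difference of 0.36 ± 0.13 (adjusted p 0.051). Kdr was picked by this p-value, so the lack of overlap is no added support.

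In Car4+ cells of the same mice, Kdr stood at 1108, 868 and 1021 CPM with PBS and at 1021, 974 and 989 CPM with LPS, a difference of -0.09 ± 0.16. The difference of the LPS effect between the 2 classes was -0.47 ± 0.11 for Kdr (adjusted p 0.031). It was the only member called, where 0.405% of all genes were. For iKO over fl/fl, no member differed between the classes at day 7 (0.0172% of genes called) or day 21 (0% called). The Kdr call was lost in 12 of 24 alternatives, among them each removal of an iKO day 7 mouse, with adjusted p up to 0.25 and the same sign throughout.

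Of the members in Car4+ cells at day 21, Tek, Kdr and Vegfa had the lowest p-values for iKO over fl/fl, whereas Esm1 had a fold of similar size and a wide error (-0.66 ± 0.90). Tek stood at 497, 409 and 312 CPM in fl/fl and 217, 263 and 248 CPM in iKO mice, Kdr at 1132, 1949 and 2065 against 2831, 2355 and 2349 CPM, and Vegfa at 242, 201 and 166 against 113, 138 and 122 CPM. The groups did not overlap for any of the 3 genes. These were picked by their p-values in this same comparison, so the lack of overlap is no added support. Over all genes, 1076 of 10659 had an unadjusted p under 0.05 here. The log2 differences were -0.69 ± 0.19, 0.56 ± 0.16 and -0.64 ± 0.22 (adjusted p 0.14, 0.16 and 0.25). DESeq2 called all 3 (adjusted p 0.014, 0.030 and 0.048). These 3 genes also varied with the number of Car4 UMIs in a cell, and the share of endothelial cells in the Car4+ gate moved alongside. In the same sums, markers of general capillary cells (8 genes) added up to 4799 to 7122 CPM in fl/fl and 2993 to 4587 CPM in iKO mice, arterial markers (7 genes) to 691 to 1021 against 506 to 611 CPM, and AT2 markers (6 genes without Sftpc) to 363 to 1646 against 2320 to 2407 CPM. None of these ranges overlapped, and their part in the differences was not tested.

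That share was 47.4%, 47.6% and 48.9% in fl/fl and 58.3%, 62.5% and 54.3% in iKO mice at day 21, a gap of 10.4 percentage points without overlap. At day 7 it was 61.5%, 64.3% and 58.9% in fl/fl LPS, 57.0%, 60.9% and 62.6% in iKO PBS and 45.9%, 46.4% and 46.9% in iKO LPS mice. The iKO LPS mice lay 15.1 points below fl/fl LPS and 13.8 points below iKO PBS. In each comparison the exact two-sided permutation test gave p 0.1, the smallest that 3 mice against 3 allow. With cells thinned to 1500 UMIs the gaps were 15.6 points at day 21 and -14.9 and -16.1 points at day 7 against fl/fl LPS and iKO PBS. These shares rest on cells with a single hashtag. Over all endothelial cells, cells without Car4 made up 42.5% in fl/fl and 34.4% in iKO at day 21. No hashtag was found in 41.6% of the fl/fl Car4+ cells against 17.1% of the fl/fl Car4- cells, and in 28.8% of the iKO Car4+ cells. Tagged cells give a lower Car4+ share than all cells do in fl/fl and in iKO. Within-class levels were therefore drawn from classes of unequal size, and the part of Car4 itself in the differences was not tested.

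Sex could not be told apart from genotype at day 7. In Car4+ cells, Xist, expressed in female cells, stood at 318, 332 and 329 CPM in fl/fl LPS mice and at 0 in all 3 iKO LPS mice, while Ddx3y, on the Y chromosome, stood at 0 and at 69.9, 57.7 and 62.5 CPM. The other 3 libraries held mice of both kinds, and at day 21 more fl/fl than iKO mice held high Xist. Sex was thus uneven in the day 21 comparison and in the LPS over PBS comparison as well. PBS mouse 1 held the most Xist of the iKO PBS mice, so leaving it out also changed this make-up, and the part of sex was not tested. Mki67, a cycling marker, stood in Car4+ cells at 33.6, 51.4 and 168 CPM in iKO LPS and at 2.81, 0 and 0 CPM in iKO PBS mice at day 7. Its part in the LPS comparison was not tested.

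Vegfa, which the lung epithelium secretes, was also measured in AT2 cells. It stood at 86.6 and 86.5 CPM in the fl/fl and 125, 146 and 197 CPM in the iKO mice given LPS at day 7. These levels rest on 54 and 20 AT2 cells in fl/fl and on 41, 101 and 58 in iKO mice. The remaining fl/fl mouse held 17 AT2 cells and was not tested. At day 21 Vegfa stood at 65.9, 52.2 and 61.6 CPM in fl/fl and 123, 102 and 131 CPM in iKO mice. The fl/fl mice held 33, 32 and 67 AT2 cells there and the iKO mice 266, 251 and 302. The groups did not overlap at either day. At day 21 the log2 difference was 0.87 ± 0.18 (edgeR, adjusted p 0.0045), where 4.3% of genes were called, and 1 of the 2 members tested (Vegfa and Nrp1) was called. Sex differed between these groups at day 7 and was uneven at day 21, and its part in the Vegfa levels was not tested.

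At day 7 Vegfa differed by 0.75 ± 0.23 in AT2 cells with 3 against 2 mice, and no member was called (adjusted p 0.10, with 1.91% of genes called). The 7 AT1 markers in the same sums added up to 1279 to 1396 CPM in fl/fl and 2089 to 2829 CPM in iKO mice at day 7, without overlap, and to 1746 to 1940 and 1711 to 1895 CPM at day 21. Their part in the Vegfa levels was not tested. With mice of at least 10 AT2 cells, an alternative chosen after seeing the data, the value was 0.77 (adjusted p 0.047). At day 21 the call was kept in 25 of 26 alternatives, with values from 0.79 to 1.72, and lost without fl/fl mouse 3 (0.87, adjusted p 0.058). Nrp1 in AT2 cells stood at 332, 238 and 337 CPM in fl/fl and 320, 326 and 339 CPM in iKO mice at day 21, a difference of -0.01 ± 0.12. The other 8 members stood at or below 10.6 CPM in AT2 cells of any library.

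**Figure D5:**
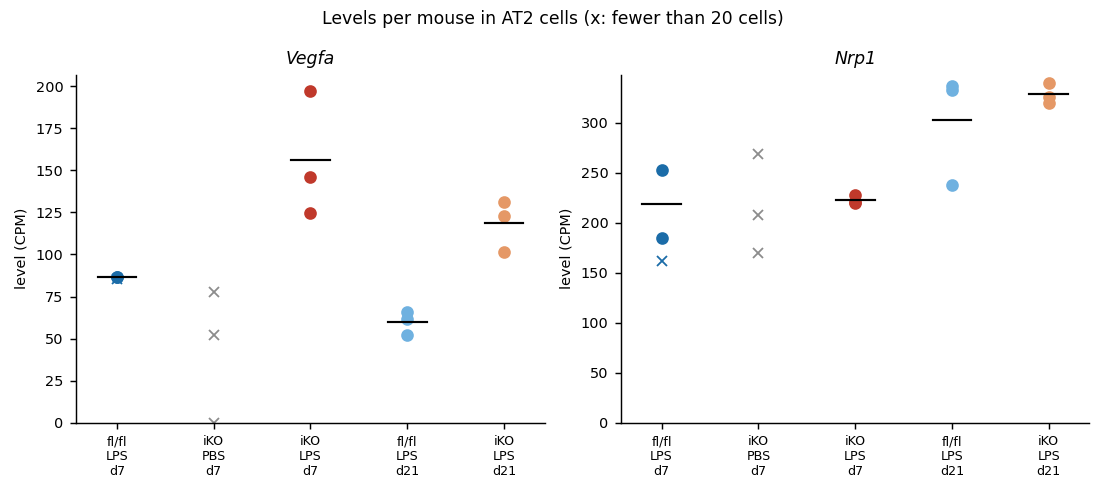
Level of Vegfa and Nrp1 per mouse in AT2 cells in CPM (y axis, linear, from 0) in the 5 groups (x axis), with bars at the mean of mice with at least 20 cells and crosses for mice with fewer, which were not tested. Vegfa lies higher in iKO than in fl/fl mice given LPS at both days, and Nrp1 overlaps.

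The genes closest to Vegfa over the 11 AT2 sums included Ceacam1 (r 0.94) and Lcn2 (0.91). Between classes, Vegfa levels per library fell in the order Car4- endothelial, Car4+ endothelial, AT2 and mesenchymal cells in fl/fl day 7 (371, 241, 89.9 and 74.6 CPM), the last 2 having overlapping 95% Poisson intervals (73.3 to 109 and 63.7 to 86.9). These are shares of the UMIs of a class, and median UMIs per cell differed, at 2151, 2598, 8947 and 4590 in that order. Vegfa UMIs per cell were not compared. In the iKO day 21 library sums, which include cells without a hashtag, Car4+ cells stood below AT2 cells (99.2 and 128 CPM). Per mouse they overlapped there, at 124 ± 12.6 CPM in Car4+ and 119 ± 15.3 CPM in AT2 cells (SD, n = 3). In mesenchymal cells, none of the 5 members tested was called at day 7 (0.124% of genes called). At day 21 only 1 iKO mouse stood against 2 fl/fl mice, with the spread taken from the other groups. There 0% of genes were called (522 at an unadjusted p under 0.05), and nothing is read from it for the members.

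The other genes of the pathway were counted from lists of the same system. In the class comparison at day 7, where 16.7% of all genes were called higher and 18.8% lower, 0 of 5 other VEGF ligands and receptors were higher and 4 lower in Car4+ cells (median log2 difference -0.93). Nrp2, a co-receptor for VEGF-C, differed by -1.99 ± 0.13, Pgf by -2.04 ± 0.43, Vegfc by -0.93 ± 0.06 and Vegfb by -0.28 ± 0.07. The most abundant of them, the lymphatic receptor gene Flt4, was at -0.05 ± 0.08 (adjusted p 0.69). Of 10 early genes and feedback inhibitors induced by VEGF, 0 were higher and 6 lower, namely Egr1 (-0.53 ± 0.04), Rcan1 (-0.66 ± 0.07), Spry2, Dusp5, Rgcc and Nr4a1. Of 17 tip cell genes, 5 were higher, with Cd34 at 1.35 ± 0.08 and Pdgfb at 0.33 ± 0.05, and 8 lower, with Plvap at -0.52 ± 0.04, Lyve1 at -0.46 ± 0.05 and Lama4 at -1.12 ± 0.16.

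Against the same background, 0 of 8 Notch genes of stalk cells were higher and 5 lower (Hey1, Notch1, Nrarp, Jag1 and Notch4, from -0.58 to -0.21). Of 12 TIE2, FOXO1 and flow genes, 0 were higher and 7 lower, led by Foxo1, Sox7, Sox17, Bcl6 and Erg, and the most abundant, Klf2, was at -0.08 ± 0.03 (adjusted p 0.051). Of 9 oxygen sensing genes, Ndrg1 (-0.93 ± 0.10), Hif1a, Slc2a1 and Epas1 were lower and Bnip3 (0.16 ± 0.06) was higher. Foxo1, a transcription factor held in check downstream of TIE2, differed by -0.63 ± 0.06 at day 7 and -1.28 ± 0.19 at day 21. Of 9 signal relays downstream of KDR, without the gate gene Cdh5, Rac1 (0.19 ± 0.03) and Prkca (1.19 ± 0.27) were higher and Nos3 (-0.67 ± 0.08), Ptpn11 and Shb lower.

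At day 21, where 10.3% of all genes were called higher and 10.5% lower, 4 of 13 tip cell genes were higher and 5 lower, with Cd34 at 1.91 ± 0.11 and Plvap at -1.17 ± 0.10. Sox17 (-1.28 ± 0.12) and Foxo1 were among 4 lower of 10 TIE2, FOXO1 and flow genes, Rcan1 (-1.18 ± 0.17) and Egr1 were the 2 lower of 6 early genes, and Hey1 (-1.13 ± 0.16) and Nrarp the 2 lower of 7 Notch genes. None of these 3 lists held a higher gene. Vegfc and Nos3 were lower in their lists, and Epas1 was lower and Egln1 and Bnip3 higher among 6 oxygen sensing genes.

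Between iKO LPS and iKO PBS mice at day 7, genes of the pathway lists were called although the 10 members were not. Over all genes, 1055 were higher and 941 lower of 10659 in Car4+ cells (18.7% called), and 904 higher and 737 lower of 10710 in Car4- cells (15.3% called). In Car4+ cells 5 of 9 early and feedback genes were higher and 1 lower, with a median log2 difference of 0.65 against 0.01 over all genes. Spry4, a feedback inhibitor of receptor signalling, stood at 23.7, 27.7 and 21.1 CPM with PBS and 76.1, 82.7 and 112 CPM with LPS (1.82 ± 0.17). Nr4a1 (1.39 ± 0.21), Spred1 (1.10 ± 0.15), Rgcc and Rcan1 were higher and Egr1 was lower (-1.23 ± 0.23). In Car4- cells 5 of 10 were higher (Spry4 at 1.17 ± 0.18, Nr4a1, Spred1, Egr3 and Rcan1) and Egr1 was lower (-0.96 ± 0.19).

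Of 16 tip cell genes tested in Car4+ cells after LPS, 6 were higher and 0 lower, namely Sparc (1.10 ± 0.19), the collagen IV genes Col4a1 (0.90 ± 0.19) and Col4a2 (0.96 ± 0.18), Mcam, Lama4 and the chemokine receptor gene Cxcr4 (1.58 ± 0.51). Plvap, the most abundant, was at -0.49 ± 0.19 (adjusted p 0.078). In Car4- cells 7 of 17 were higher, led by Cd34, Lama4, Cxcr4 and Col4a2, and 3 lower, the latter being Plvap (-0.69 ± 0.15), Igfbp3 and Robo4. Other markers moved in the same sums. The 7 fibroblast markers (without the gate gene Col1a2) added up to 20.8 to 26.8 CPM with PBS and 97.3 to 113 CPM with LPS in Car4+ cells and to 27.6 to 35.3 and 133 to 183 CPM in Car4- cells. The 7 aerocyte markers without Car4 added up to 4387 to 5195 CPM with PBS and 2257 to 3030 CPM with LPS in Car4+ cells. Their part in these calls was not tested.

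Among the other VEGF genes, Nrp2 was higher in both classes, by 1.46 ± 0.37 and 2.20 ± 0.44, and Flt4 in Car4+ cells (0.40 ± 0.13). Notch genes went both ways. Hey1, a Notch target, was lower in both classes (-0.69 ± 0.19 and -0.75 ± 0.14), while Nrarp, a feedback inhibitor of Notch, was higher in both (0.76 ± 0.19 and 0.46 ± 0.15) and Rbpj was higher in Car4+ cells (0.50 ± 0.16). Of 9 signal relays, Nos3 was higher (0.57 ± 0.15) and Rac1, Pxn and Akt1 lower (-0.35 to -0.34) in Car4+ cells, and Pxn and Akt1 were lower in Car4- cells. Sox18 (-0.63 ± 0.11 and -0.80 ± 0.12) and Sox7 were lower in both classes, Ets1 and Sox17 were higher in Car4+ cells and Klf2 in Car4- cells. Hif1a, the oxygen-regulated transcription factor, was higher in both (0.77 ± 0.10 and 0.86 ± 0.14), with Egln1 lower in Car4+ cells and Pgk1 higher and Bnip3 lower in Car4- cells. These comparisons are between 2 libraries.

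Between iKO and fl/fl mice given LPS at day 7, 1.75% of all genes were called in Car4+ cells and 1.17% in Car4- cells. The iKO LPS mice are the same as in the LPS over PBS comparison. Spred1 and Nr4a1 were higher in Car4+ cells (1.07 ± 0.15 and 1.47 ± 0.22), and so were Vegfc (0.72 ± 0.17), Klf2 (0.66 ± 0.12) and Sox17 (0.47 ± 0.09). These were 2 of 9 early and feedback genes, 1 of 4 other VEGF genes and 2 of 12 TIE2, FOXO1 and flow genes. No gene of the other lists was called there. Vegfc, a ligand of the lymphatic receptor FLT4, stood at 24.7, 31.2 and 31.8 CPM in fl/fl and 51.2, 50.4 and 45.1 CPM in iKO mice. In Car4- cells Nr4a1 (1.48 ± 0.21), Spred1 (1.14 ± 0.21), Egr3 (2.45 ± 0.55) and Klf2 (0.63 ± 0.13) were higher. These were 3 of 10 early and feedback genes and 1 of 12 TIE2, FOXO1 and flow genes. Nr4a1 stood in Car4+ cells at 61.9, 49.8 and 50.4 CPM in fl/fl mice and at 85.4, 194 and 178 CPM in iKO mice, which differ in sex as well. At day 21, 0.357% of all genes were called in Car4+ cells and 0.224% in Car4- cells. Of the pathway lists, 1 gene was called in Car4+ cells, Sox18 (-0.68 ± 0.14), 1 of 12 TIE2, FOXO1 and flow genes, and 0 in Car4- cells.

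In AT2 cells, Rcan1, an inhibitor of calcineurin induced by VEGF in endothelium, was higher in iKO mice at day 21 (1.70 ± 0.30). It was 1 of 7 early and feedback genes tested, where 4.3% of all genes were called. At day 7, where 1.91% of all genes were called, Rgcc (-1.21 ± 0.22) and Egr1 (-0.75 ± 0.19) were lower, 2 of 7 early and feedback genes. Sparc (1.01 ± 0.16) was higher, 1 of 3 tip cell genes, and no other gene of the pathway lists was called in AT2 cells.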

How the data were processed

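The matrices deposited by the authors hold counts: UMIs per gene and barcode from 10x 5′ libraries, with hashtag counts in the same matrices. The submitters' processing notes name Cell Ranger 3.1, Seurat 4.1.0 and mm10. Barcodes with fewer than 500 UMIs were not listed. A barcode was used where 700 or more genes were detected and the mitochondrial share lay between 0.1% and 15%. Doublets were removed only as an alternative (Scrublet). A hashtag was called at 4 times its background, and UMIs of cells with a single hashtag were summed per mouse and class.

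Sums of at least 20 cells were tested with edgeR 4.0.16 (R 4.3.3; TMM, filterByExpr, quasi-likelihood F-test, Benjamini-Hochberg over all genes tested, threshold 0.05), with 1 fit per class over all groups. Car4+ and Car4- sums were compared with the mouse as a block, because both come from the same mouse. P-values measure the spread between mice of 1 library each. Hashtag numbers do not pair mice across groups. LPS over PBS was not fitted for AT2 or mesenchymal cells, since PBS mice had too few. Intervals cover counting error only. The SE of a log2 fold change was approximated as its absolute value divided by the square root of the F statistic. The test was checked on simulated counts. All 10 members are named. From each pathway list, the rule was to name genes past the threshold, at most 5 by adjusted p, and the most abundant; in places more were named, or the most abundant was left out. The members and lists were chosen with earlier results of these data known. Alternatives included DESeq2 1.42.0, other gates, thinned cells and leaving out each mouse.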

Additional observations from a re-analysis of the deposited data

Results flagged for a closer look

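The effect of LPS on Kdr differed between the endothelial classes of iKO mice at day 7. The log2 fold change of LPS over PBS was lower in Car4+ than in Car4- cells by -0.47 ± 0.11 (edgeR interaction test, adjusted p 0.031, 3 mice per group). Kdr was higher with LPS than with PBS in all pairs of mice in Car4- cells, and the mice overlapped in Car4+ cells. The difference was no longer called in 12 of 24 alternatives, and with the Car4+ gate at 5 UMIs, chosen after seeing the data, it was -0.34 (adjusted p 0.25).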

How the results depend on the processing

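Counts of members called moved as follows. For LPS over PBS in Car4+ cells, 1 member (Aplnr) was called with no filter on low counts, a Car4 gate of 2 UMIs, predicted doublets removed, cells thinned to 1500 UMIs or a Car4 gate of 5 UMIs (1.13, adjusted p 0.012), the last chosen after seeing the data, and 0 to 1 when 1 mouse was left out. Over all genes, 2419, 1471, 1891, 1173 and 896 were called in those settings, in that order. Without PBS mouse 1 and without LPS mouse 3, 1993 and 1372 genes were called. In Car4- cells, 1 was called with DESeq2 size factors, the DESeq2 Wald test, doublets removed, hashtags at 8 times background or thinned cells (Kdr in each) and with no filter (Vegfa). Over all genes, 1642, 1430, 1545, 1613, 966 and 1959 were called in those settings, in that order. Leaving out 1 mouse gave 0 to 2, the 2 being Aplnr (0.72, adjusted p 0.0040) and Esm1 (1.56, adjusted p 0.016) without PBS mouse 1. In that fit 1607 genes were called over all genes. With all mice Esm1 was 0.17, and it turned to -0.16 and -0.20 without PBS mice 2 and 3, and to -0.07 without iKO LPS mouse 2.

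For iKO over fl/fl at day 21 in Car4+ cells, 3 members (Vegfa, Kdr and Tek) were called with the DESeq2 Wald test and with no filter. Over all genes, 151 and 202 were called in these settings. At day 7 in Car4- cells, 1 (Vegfa) was called with no filter, among 353 called over all genes. In AT2 cells, 1 (Vegfa) was called at day 7 with a minimum of 10 cells, among 131 called over all genes. At day 21 leaving out 1 mouse gave 0 to 1. The 0 was without fl/fl mouse 3, where 165 genes were called over all genes. In mesenchymal cells, 1 was called at day 7 with no filter, among 169 called over all genes. The difference between classes in the LPS effect held 0 called members with the DESeq2 Wald test, a Car4 gate of 2 UMIs, hashtags at 8 times background or thinned cells, 2 (Vegfa, 0.64, and Tek, 0.66) with a Car4 gate of 5 UMIs, and 0 to 1 when 1 mouse was left out. Over all genes, 50, 64, 36, 24 and 165 were called from the DESeq2 Wald test to the Car4 gate of 5 UMIs, in that order. The cause of these changes was not tested.

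Between the classes, leaving out 1 mouse gave 8 to 9 called members at day 7 and 7 to 9 at day 21. Without the mouse block, Flt1 (adjusted p 0.14) and Aplnr (0.32) were lost at day 7. Tie1 at day 21 was lost with DESeq2, with thinned cells and without fl/fl mouse 2, and Esm1 with DESeq2. Other calls were gained. Angpt2 was called at day 7 with no filter, stricter gates, doublets removed, or Car4 gates of 2 or 5 UMIs. It was also called there without iKO PBS mouse 3 or iKO LPS mouse 1 (adjusted p 0.0019 to 0.048). Tie1 was called at day 7 with Car4 gates of 2 and 5 UMIs (adjusted p 0.030 and 0.0077). At day 21 Angpt2 was called without fl/fl mouse 1 (adjusted p 0.034) and Flt1 without iKO mouse 3 (0.049). Among the counts and shares recomputed, 379 stayed within their bounds and 36 moved. No paired analysis was possible between groups because each hashtag number names a different mouse. Car4- cells include cells in which Car4 was not captured, and levels near 10 CPM rest on few UMIs.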

Other observations

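In the 3 libraries with mice of both sexes by Xist and Ddx3y, the mice were set side by side within 1 library. In Car4+ cells of iKO PBS mice at day 7, the mouse with Xist at 195 CPM held Apln at 357 CPM, and those with Xist at 11.9 and 8.44 CPM held Apln at 162 and 191 CPM. At day 21, Apln stood in fl/fl mice at 374 and 459 CPM (Xist 271 and 306 CPM) and at 191 CPM (Xist 94.1 and Ddx3y 50.4 CPM), and in iKO mice at 525 CPM (Xist 194 CPM) and at 399 and 438 CPM (Xist 23.7 and 35.4 CPM). Kdr followed the same order within each of these libraries, at 1108 against 868 and 1021 CPM, 1949 and 2065 against 1132 CPM, and 2831 against 2355 and 2349 CPM. Apln lies on chromosome X and Kdr does not. The order was noticed in these values, rests on 1 or 2 mice per library and was not tested. At day 7 the fl/fl LPS mice (with Xist) and the iKO LPS mice (without) overlapped in Car4+ cells. Apln stood at 197 to 236 CPM in fl/fl LPS and at 189 to 231 CPM in iKO LPS mice. Kdr stood at 895 to 1187 and at 974 to 1021 CPM. These groups also differ in genotype.

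Cycling cells held less Apln. In Car4+ cells with Mki67, Apln stood at 34.7 CPM against 240 CPM without Mki67 in fl/fl day 7 and at 121 against 237 CPM in iKO LPS day 7, and Kdr at 411 against 1153 and 559 against 1092 CPM. These are library levels of 173 and 171 cells with Mki67, with no test across mice.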
